A study of Mus musculus with 9 samples.

Results

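The genes described here are 40 genes of the glutathione and thioredoxin systems and known targets of the transcription factor NRF2. They were chosen by symbol among the 47729 genes of the deposited count tables, and all 40 were found. RNA came from skeletal muscle myoblasts of the inbred mouse strain FVB/N, in 3 populations with 3 libraries each. PAR is the parental population, FRC1 the population labelled FRCs Cycle 1 and SRC3 the population labelled SRCs Cycle 3. The last 2 are reserve cell populations, the undifferentiated cells of a muscle culture, which the submitters returned to proliferation and passaged before harvest. The labels name no genetic change or drug in any group, do not say how the PAR cells were passaged, and do not say whether replicates were separate cultures, so all p-values measure the spread between these libraries, which may be technical.

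NRF2, encoded by Nfe2l2, is held low by KEAP1, an adaptor that hands it to a ubiquitin ligase. When KEAP1 is modified by oxidants or electrophiles, NRF2 accumulates and, paired with a small MAF protein, binds the antioxidant response element (ARE) of its target genes. Those targets make glutathione, conjugate it to toxic compounds, reduce thioredoxin and peroxiredoxins, break down haem and supply NADPH, the reducing power that glutathione reductase and thioredoxin reductase both consume.

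Levels are in CPM, a count divided by its library's TMM-scaled total and put on a common scale, and are given as means ± SD over the 3 libraries of a group. Libraries held 13012996 to 14336279 gene counts, so that 3 counts corresponded to 0.21 to 0.231 CPM. Of the 40 genes 38 had enough counts to be tested among 12540 genes. A gene is called where the Benjamini-Hochberg adjusted p over all tested genes of edgeR's quasi-likelihood test was below 0.05, and "rose" and "fell" are used only of called genes. Each library was cultured cells, and in such bulk RNA fewer cells of a type and less RNA per cell cannot be told apart. The myoblast markers Myod1 and Pax7 were present in all groups: Myod1 at 776 ± 15.1, 770 ± 15.8 and 539 ± 18.8 CPM and Pax7 at 127 ± 8.23, 114 ± 7.54 and 72.6 ± 3.15 CPM in PAR, FRC1 and SRC3. Myf5 had no reads in PAR or FRC1 and at most 0.0759 CPM in an SRC3 library.

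The largest differences were in glutathione transferase genes. In SRC3 the transferase genes Gsta4 and Gstm5 stood 2.5-fold and 2.23-fold below PAR and Mgst3 2.57-fold above it. Nfe2l2 itself stood 1.26-fold lower in FRC1 and 1.44-fold lower in SRC3. Hmox1, a haem breakdown gene, was lower in FRC1 than in both other groups, and Gclm and Nqo1 were highest in SRC3. The thioredoxin, peroxiredoxin and dismutase genes, which include the most abundant of the 40, differed by less than 1.5-fold between any pair of groups, apart from Prdx5, whose fold between SRC3 and FRC1 was 1.5.

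**Figure D1:**
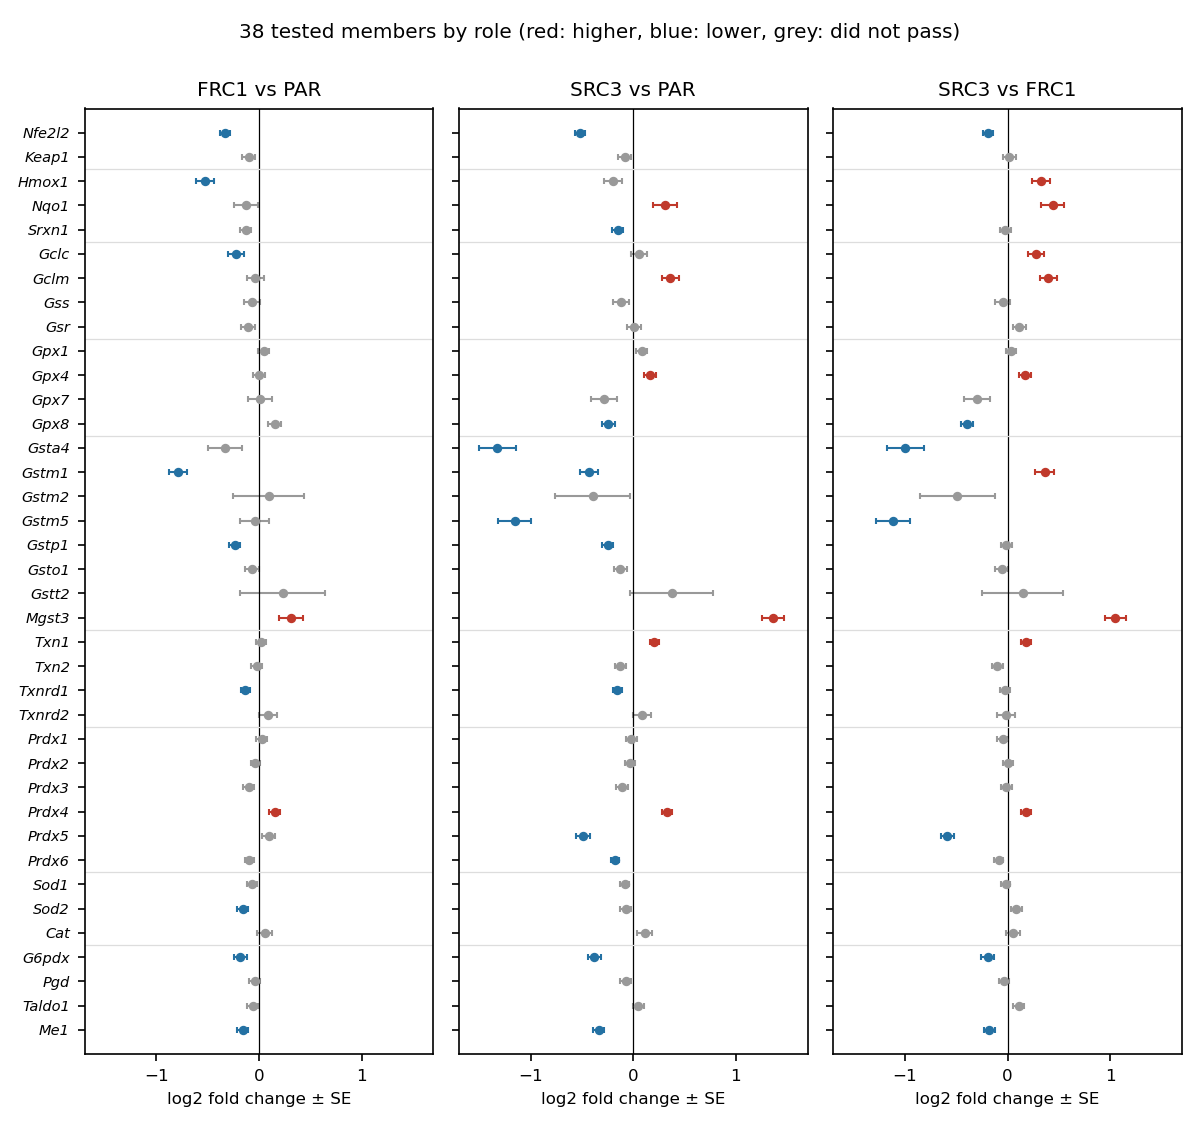
Log2 fold change (x axis) with its SE of the 38 tested genes (y axis, ordered by role, with grey lines between roles) in the 3 comparisons, red where called higher, blue where called lower and grey where not called. Gsta4, Gstm5 and Mgst3 lie farthest from 0 in SRC3 against PAR, and Gstm1 does in FRC1 against PAR.

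In FRC1 against PAR 2 of the 38 genes rose (Mgst3 and Prdx4), 9 fell and 27 were not called. That is 28.9% of them, beside 28.3% of all 12540 genes tested, of which 13.6% rose and 14.7% fell. In SRC3 against PAR 6 rose, 12 fell and 20 were not called, which is 47.4% beside 37.9% of all genes (17.8% higher and 20.2% lower). In SRC3 against FRC1 9 rose, 7 fell and 22 were not called, which is 42.1% beside 33.5% (15.5% higher and 18% lower). The median log2 fold change of the 38 was -0.06, -0.10 and -0.01 in the 3 comparisons, against medians of 0.0034, 0.0057 and -0.00028 over all genes. The median size of the change was 0.098, 0.174 and 0.131 for the 38 and 0.155, 0.184 and 0.164 over all genes. The libraries of the 2 groups compared did not overlap in 14, 21 and 16 of the 38 genes and in 44.2, 49.1 and 42.8% of all genes tested. A lack of overlap was therefore common. Of the 11 calls in FRC1 against PAR, 5 were lost with DESeq2 (Mgst3, Prdx4, Sod2, G6pdx and Me1), and so were both calls of Gpx4 in SRC3. The 3 comparisons share libraries, so their values are set side by side and not counted as separate evidence.

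The summed level of the 40 genes was 6913 ± 66 CPM in PAR, 6567 ± 206 in FRC1 and 6506 ± 93.6 in SRC3. The sum lay at 6837 to 6957 CPM in the PAR libraries, at 6421, 6803 and 6477 in FRC1 replicates 1 to 3, and at 6400 to 6575 in SRC3. All 3 PAR libraries were above the other 6, with FRC1 replicate 2 nearest to them. Txnrd1, Prdx6, Txn1 and Prdx1 held 41.1 to 42.2% of the sum in each group. Within FRC1, replicate 2 had the highest level of its group in 19 of the 38 tested genes, replicate 1 in 11 and replicate 3 in 8.

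**Figure D2:**
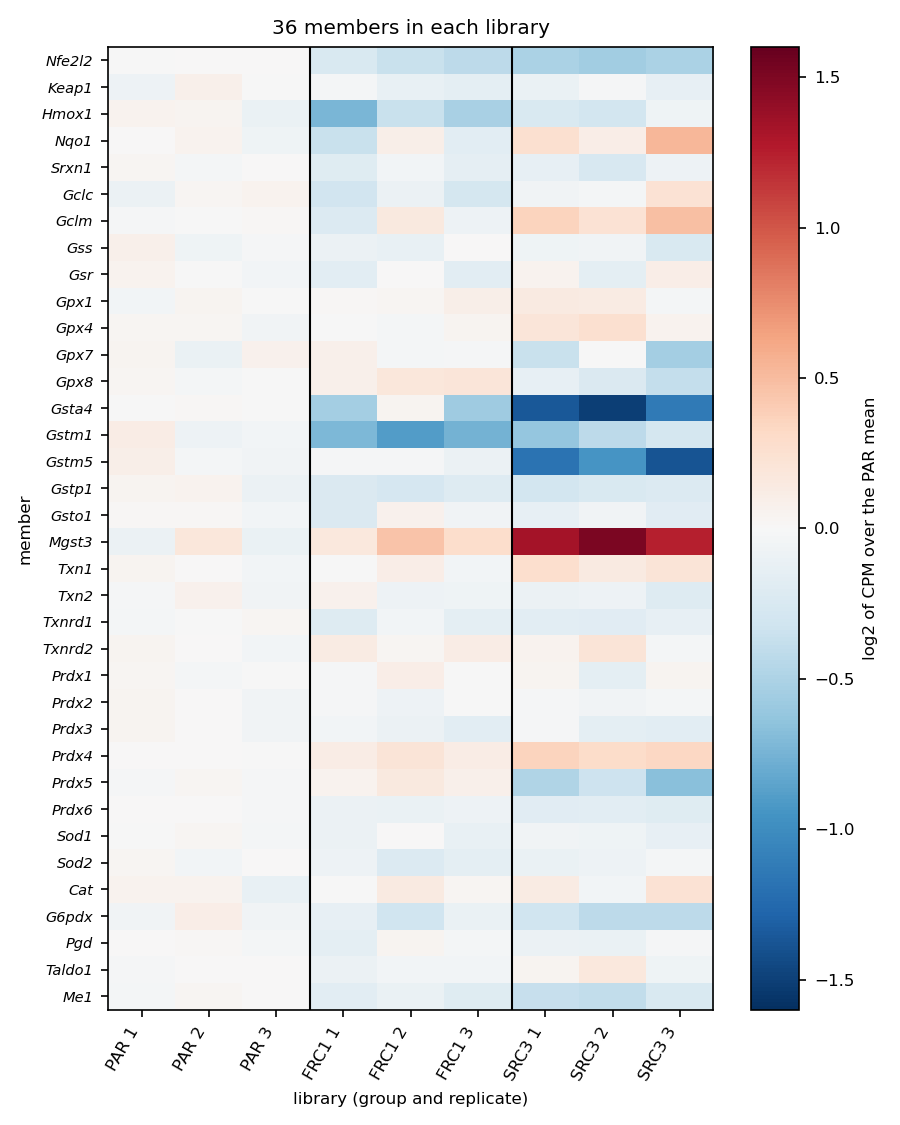
Heat map of 36 genes (rows, by role) in the 9 libraries (columns), coloured by the log2 of CPM over the PAR mean. Gsta4 and Gstm5 are blue and Mgst3 red in all 3 SRC3 libraries, and Gsta4 in FRC1 replicate 2 resembles PAR.

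Promoters of 34 of the 40 genes were in the RefSeq promoter table for GRCm38.p6, each 300 bases long with 250 before the transcription start. Hmox1, Gclc, Gsr, Gsta4, Gstt2 and Prdx6 were not matched. The ARE core, TGACNNNGC, was searched on both strands; where its middle letters are TCA it also holds the AP-1 site TGACTCA. It was present in a promoter of 11 of the 34 genes (32.4%), in 15.5% of the 97 matched other pathway genes and in 14% of all 27025 genes of the table, or 12.4% of its 32851 promoters. The 40 genes include known NRF2 targets by choice, and the share among tested genes alone was not computed. The 11 were Nfe2l2, Srxn1, Gclm, Gstm5, Mgst1, Txnrd1, Prdx1, Sod1, G6pdx, Pgd and Me1. Of the 10 that were tested, 1 rose (Gclm), 6 fell and 3 were not called in SRC3 against PAR, and of the 22 tested genes with a promoter but no match, 5 rose, 4 fell and 13 were not called. In FRC1 against PAR 0 of the 10 rose by edgeR, 4 fell and 6 were not called, and of the 22 genes 2 rose, 3 fell and 17 were not called. In SRC3 against FRC1 1 of the 10 rose, 4 fell and 5 were not called, and of the 22 genes 6 rose, 2 fell and 14 were not called. Among all tested genes 14.7%, 20.2% and 18% fell in FRC1 against PAR, SRC3 against PAR and SRC3 against FRC1. The promoters of 5 called genes with a match are shown, 5′ to 3′ on the strand of the gene, with the match in capitals, because they place the element in the regulator itself, in the 1 gene with a match that rose and in 3 that fell.
Nfe2l2 (chr2:75704614-75704913, minus strand): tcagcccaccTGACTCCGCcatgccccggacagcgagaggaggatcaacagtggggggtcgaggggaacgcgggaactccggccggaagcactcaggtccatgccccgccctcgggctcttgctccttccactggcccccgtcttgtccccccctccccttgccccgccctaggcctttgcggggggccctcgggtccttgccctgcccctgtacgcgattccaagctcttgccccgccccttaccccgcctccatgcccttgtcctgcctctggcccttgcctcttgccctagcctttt
Gclm (chr3:122245307-122245606, plus strand): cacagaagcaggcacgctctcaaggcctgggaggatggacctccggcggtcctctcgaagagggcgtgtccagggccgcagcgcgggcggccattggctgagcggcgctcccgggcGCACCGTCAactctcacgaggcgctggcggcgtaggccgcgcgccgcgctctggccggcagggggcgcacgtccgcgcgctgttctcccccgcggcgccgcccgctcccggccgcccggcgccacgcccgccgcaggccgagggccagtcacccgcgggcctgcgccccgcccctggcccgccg
Gstm5 (chr3:107895604-107895903, plus strand): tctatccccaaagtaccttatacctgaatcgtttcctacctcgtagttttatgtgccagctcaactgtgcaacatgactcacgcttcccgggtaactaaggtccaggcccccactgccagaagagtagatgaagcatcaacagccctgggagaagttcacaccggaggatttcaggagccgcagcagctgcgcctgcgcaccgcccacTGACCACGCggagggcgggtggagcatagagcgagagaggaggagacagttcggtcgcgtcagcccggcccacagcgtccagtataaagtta
G6pdx (chrX:74428831-74429130, minus strand): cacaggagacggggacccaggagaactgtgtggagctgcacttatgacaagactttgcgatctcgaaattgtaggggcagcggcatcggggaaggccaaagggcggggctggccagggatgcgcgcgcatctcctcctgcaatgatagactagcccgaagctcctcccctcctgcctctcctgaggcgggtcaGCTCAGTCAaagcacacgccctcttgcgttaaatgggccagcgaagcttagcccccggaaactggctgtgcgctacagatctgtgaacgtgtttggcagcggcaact
Me1 (chr9:86695865-86696164, minus strand): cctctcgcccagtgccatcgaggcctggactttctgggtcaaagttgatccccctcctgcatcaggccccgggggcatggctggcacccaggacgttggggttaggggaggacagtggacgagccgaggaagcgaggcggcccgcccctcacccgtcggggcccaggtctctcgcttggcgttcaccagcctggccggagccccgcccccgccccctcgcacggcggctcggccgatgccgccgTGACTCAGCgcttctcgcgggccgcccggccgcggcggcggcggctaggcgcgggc
The match began 240 bases before the start in Nfe2l2, 134 in Gclm, 42 in Gstm5, 57 in G6pdx and 6 in Me1. In Gclm and G6pdx it was on the opposite strand, where it reads TGACGGTGC and TGACTGAGC, and in Me1 it reads TGACTCAGC. A match describes these letters only. Sequence outside the 300 bases was not searched, so genes without a match, Nqo1 among them, may hold the element elsewhere. Calls by match were not computed over all tested genes, and a part of the element in the differences was not tested.

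The regulators were Nfe2l2 and Keap1. Nfe2l2 (ENSMUSG00000015839, GRCm38 chromosome 2, 75675513 to 75704641) stood at 252, 254 and 254 CPM in PAR, 214, 199 and 190 in FRC1, against 178, 173 and 178 in SRC3. The 3 groups did not overlap, with PAR highest and SRC3 lowest. The gene fell in FRC1 (log2 change -0.33, SE 0.049; edgeR adjusted p = 4.28e-05), fell further in SRC3 against PAR (-0.52, SE 0.049; edgeR adjusted p = 5.03e-08) and was lower in SRC3 than in FRC1 (edgeR adjusted p = 0.00561). Keap1 was not called, at 58.1 ± 3.09, 54.2 ± 2.23 and 54.8 ± 2.22 CPM in PAR, FRC1 and SRC3 (edgeR adjusted p = 0.251 to 0.868 over the comparisons).

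Hmox1, Nqo1 and Srxn1 are widely used readouts of NRF2 and did not move alike. Hmox1 encodes haem oxygenase 1, which opens haem to biliverdin, carbon monoxide and iron. Its level was 77.8, 77.6 and 69.8 CPM in PAR, 45, 58.9 and 52.2 in FRC1, against 63.5, 61.1 and 71.6 in SRC3. All FRC1 libraries were below all others, and SRC3 overlapped with PAR. Hmox1 fell in FRC1 against PAR (log2 change -0.53, SE 0.086; edgeR adjusted p = 0.000281) and was higher in SRC3 than in FRC1 (0.33, SE 0.087; edgeR adjusted p = 0.0078). SRC3 against PAR was not called (edgeR adjusted p = 0.0762), though it was without FRC1 replicate 1, FRC1 replicate 2 or SRC3 replicate 3 (range 0.0218 to 0.248 over left-out libraries). Hmox1 was also called there without a filter and with only the 2 groups compared in the fit.

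Nqo1 encodes a quinone reductase. It stood at 29.5, 30.4 and 28 CPM in PAR, 22.9, 31.4 and 26.1 in FRC1, against 34.9, 31.6 and 42.5 in SRC3. FRC1 overlapped with PAR, and every SRC3 library was above the other 6, the lowest only just. Nqo1 was higher in SRC3 than in FRC1 (log2 change 0.44, SE 0.12; edgeR adjusted p = 0.00855) and than in PAR (0.31, SE 0.11; edgeR adjusted p = 0.0447). The call against PAR was lost when any 1 PAR library, FRC1 replicate 3 or either of SRC3 replicates 1 and 3 was left out (range 0.00837 to 0.169). Srxn1, the gene of sulfiredoxin, which repairs overoxidised peroxiredoxins, went the other way, at 281 ± 6.95 CPM in PAR, 257 ± 13.3 in FRC1 and 254 ± 15.6 in SRC3. Its fall in SRC3 against PAR (edgeR adjusted p = 0.0291) was lost when any 1 PAR library, FRC1 replicate 3 or either of SRC3 replicates 1 and 2 was left out (range 0.00917 to 0.158). In FRC1 it was not called (edgeR adjusted p = 0.07), though it was without FRC1 replicate 2, SRC3 replicate 2 or SRC3 replicate 3 (range 0.0312 to 0.219). With only the 2 groups compared in the fit it was called too (edgeR adjusted p = 0.0292).

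Glutathione is made by glutamate-cysteine ligase, whose catalytic subunit is Gclc and modifier subunit Gclm, and then by glutathione synthetase (Gss), while Gsr returns its oxidised form to use. Gclm stood at 115, 116 and 118 CPM in PAR, 100.01, 129.97 and 109.7 in FRC1, against 149, 137 and 162 in SRC3. All SRC3 libraries were above the other 6, and FRC1 spread to both sides of PAR. Of the 50-base windows of Gclm transcripts 4.58% also occurred in other genes, Ppia among them. Other genes overlap 4.71% of its exon bases, Gm6061 on the same strand among them. Gclm rose in SRC3 against PAR (log2 change 0.36, SE 0.082; edgeR adjusted p = 0.00294) and against FRC1 (0.40, SE 0.082; edgeR adjusted p = 0.0017). Its partner Gclc stood at 102, 112 and 114 CPM in PAR, 88.1, 102 and 89.9 in FRC1, against 105, 107 and 128 in SRC3, so FRC1 and SRC3 each overlapped with PAR. Gclc was higher in SRC3 than in FRC1 (0.28, SE 0.078; edgeR adjusted p = 0.0111). Its fall in FRC1 against PAR (-0.22, SE 0.078; edgeR adjusted p = 0.0429) was lost without PAR replicate 2, PAR replicate 3, FRC1 replicate 1 or FRC1 replicate 3 (range 0.00775 to 0.144). Gss, at 30.3 to 32.9 CPM, and Gsr, at 106 to 115 CPM in group means, were called in no comparison, though Gsr was higher in SRC3 than in FRC1 without SRC3 replicate 2 (edgeR adjusted p = 0.0136; range 0.0136 to 0.519).

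**Figure D3:**
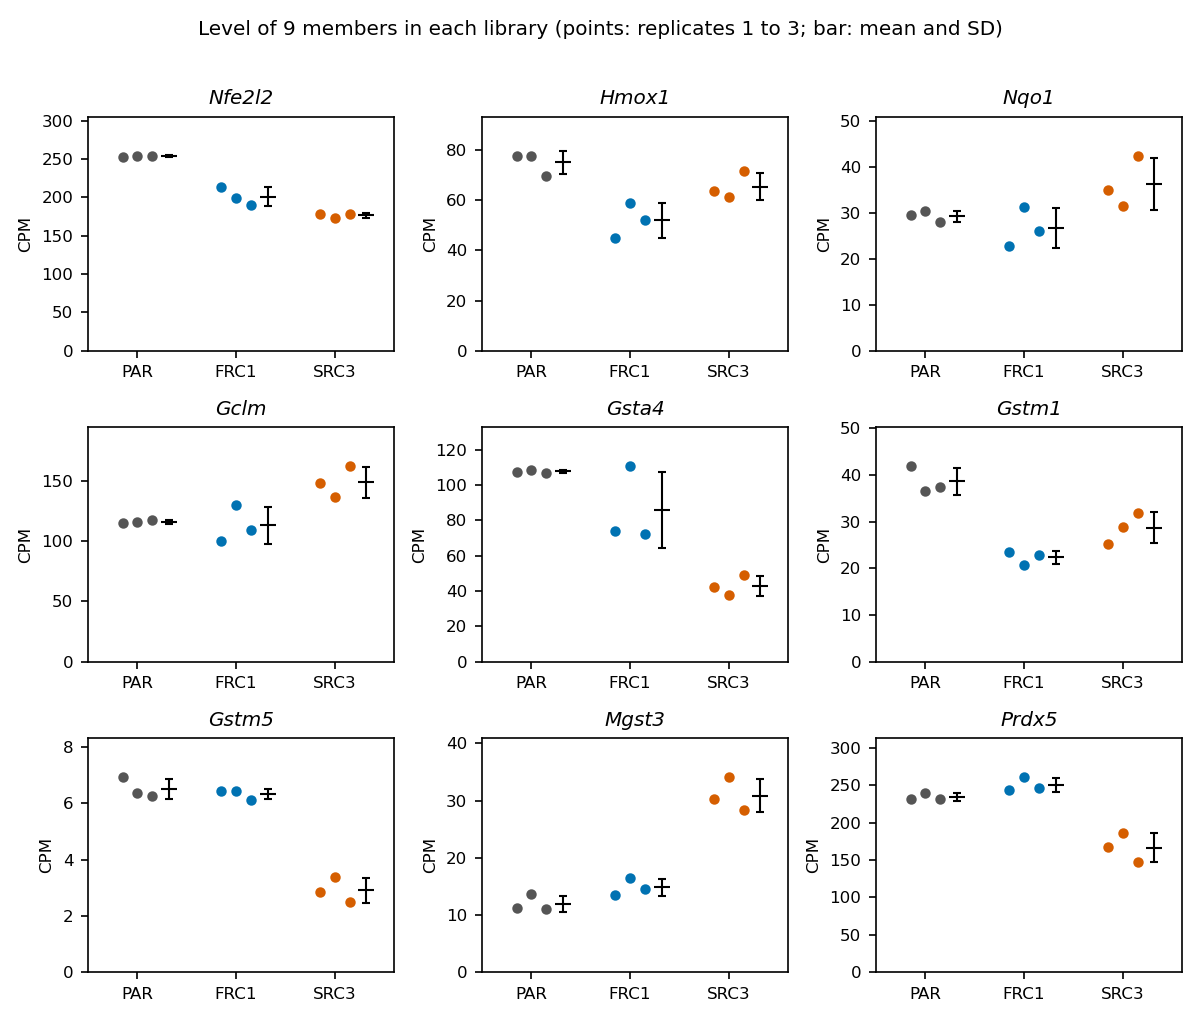
Level in CPM (y axis, from 0) of 9 genes in PAR, FRC1 and SRC3 (x axis), with a point for each library and a bar for the mean and SD of the 3. Hmox1 and Gstm1 are lowest in FRC1, Gclm and Mgst3 highest in SRC3, and Gsta4 spans 72.6 to 110.6 CPM within FRC1.

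Among the glutathione peroxidases, Gpx1 and Gpx4 use glutathione to reduce peroxides, with Gpx4 acting on lipid peroxides in membranes. Gpx7 and Gpx8 belong to the same family and reside in the endoplasmic reticulum. None of the 4 was called in FRC1 against PAR by edgeR (1 at an unadjusted p under 0.05, Gpx8). Gpx8 stood at 90.6, 86.9 and 88.1 CPM in PAR, 93.4, 100.4 and 101.5 in FRC1, against 80.7, 75.7 and 68 in SRC3, so the 3 groups did not overlap. It fell in SRC3 against PAR (log2 change -0.24, SE 0.062; edgeR adjusted p = 0.00396) and against FRC1 (-0.40, SE 0.062; edgeR adjusted p = 4.13e-05). The value for FRC1 against PAR was 0.15 (edgeR adjusted p = 0.0657), and it was called without FRC1 replicate 1 or SRC3 replicate 3 (range 0.0315 to 0.233). Scaling by library sizes alone, or fitting only the 2 groups compared, called it too. Gpx4 rose from 74.3 ± 2.57 CPM in PAR and 74.2 ± 2.01 in FRC1 to 83.4 ± 5.86 in SRC3 (edgeR adjusted p = 0.0314 and 0.0345). Of its 50-base transcript windows 34.7% also occurred in other genes, Gpx4-ps2 among them, the highest share of the 40 genes. Both Gpx4 calls were lost when SRC3 replicate 1 or SRC3 replicate 2 was left out, the first also without PAR replicate 2 or PAR replicate 3 (range 0.00494 to 0.113) and the second without FRC1 replicate 1 or FRC1 replicate 2 (range 0.00618 to 0.104). Gpx1, at 166 ± 4.75, 172 ± 4.56 and 176 ± 11.4 CPM, and Gpx7, at 12.8 ± 0.835, 12.9 ± 0.554 and 10.5 ± 2 CPM in PAR, FRC1 and SRC3, were not called. In SRC3 against PAR Gpx1 was called higher without SRC3 replicate 3 (edgeR adjusted p = 0.0402) and Gpx7 lower without SRC3 replicate 2 (0.00813), as it was against FRC1 (0.00766).

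The transferases, which couple glutathione to electrophiles, held the largest changes of the 40 genes in both directions. Of the 10, 8 were tested: in SRC3 against PAR 1 rose and 4 fell, and in FRC1 against PAR 1 rose and 2 fell. Gsta4 encodes an alpha class enzyme known for clearing the lipid peroxidation product 4-hydroxynonenal (ENSMUSG00000032348, chromosome 9, 78182774 to 78209349). It stood at 107, 109 and 107 CPM in PAR, 74, 110.6 and 72.6 in FRC1, against 42.1, 37.9 and 49.1 in SRC3. All SRC3 libraries were below the other 6, while FRC1 replicate 2 was above every PAR library and the other FRC1 libraries below them. Gsta4 fell in SRC3 against PAR (log2 change -1.32, SE 0.18; edgeR adjusted p = 0.000716) and against FRC1 (-0.996, SE 0.18; edgeR adjusted p = 0.00389). In FRC1 against PAR it was not called (-0.33; edgeR adjusted p = 0.192), but without FRC1 replicate 2 the log2 fold change was -0.56 (edgeR adjusted p = 3.3e-05; range 3.3e-05 to 0.391).

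Mu class genes of chromosome 3 differed among themselves. Gstm1 (ENSMUSG00000058135, chromosome 3, 108012255 to 108017973) stood at 41.8, 36.5 and 37.5 CPM in PAR, 23.4, 20.7 and 22.9 in FRC1, against 25.2, 28.9 and 31.9 in SRC3. The 3 groups did not overlap, with FRC1 lowest and SRC3 between it and PAR. Gstm1 fell in FRC1 against PAR (log2 change -0.79, SE 0.089; edgeR adjusted p = 2.41e-06) and in SRC3 against PAR (-0.43, SE 0.087; edgeR adjusted p = 0.000537), and was higher in SRC3 than in FRC1 (0.36, SE 0.092; edgeR adjusted p = 0.00454). It was the only one of the 38 genes called lower in both reserve populations and higher in SRC3 than in FRC1.

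Gstm5 (ENSMUSG00000004032, chromosome 3, 107895821 to 107898686) had another pattern, at 6.92, 6.35 and 6.25 CPM in PAR, 6.44, 6.43 and 6.12 in FRC1, against 2.86, 3.39 and 2.51 in SRC3. FRC1 lay within or just below the PAR range and SRC3 was far below both. Gstm5 fell in SRC3 against PAR (log2 change -1.16, SE 0.16; edgeR adjusted p = 9.92e-06) and against FRC1 (-1.12, SE 0.16; edgeR adjusted p = 1.85e-05). Gstm2, between them on the chromosome, had 7 to 36 reads per library, 1.41 ± 0.761 CPM in SRC3 and 1.84 ± 0.62 in PAR, and was not called. Gstm4, their neighbour and not one of the 40 genes, fell in SRC3 from 2.09 ± 0.44 CPM in PAR to 0.25 ± 0.108 (log2 change -3.02, SE 0.38; edgeR adjusted p = 2.85e-06), with 2 to 5 reads in each SRC3 library. Sequence shared with other genes limits these values. Of the 50-base windows of annotated Gstm1 transcripts 18.9% also occurred in related transcripts, Gstm2 and Gstm3 among them, and 5.65% of those of Gstm2 did. For Gstm5 9.44% were shared, with a gene on the opposite strand, 4933431E20Rik.

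Mgst3, a membrane-bound transferase and peroxidase gene (ENSMUSG00000026688, chromosome 1, 167371966 to 167393841), stood at 11.3, 13.6 and 11.1 CPM in PAR, 13.6, 16.4 and 14.6 in FRC1, against 30.2, 34.1 and 28.3 in SRC3. Every SRC3 library was well above the other 6, and FRC1 overlapped with PAR by 1 library. Mgst3 rose in SRC3 against PAR (log2 change 1.36, SE 0.10; edgeR adjusted p = 2.47e-09) and against FRC1 (1.05, SE 0.10; edgeR adjusted p = 8.89e-08). Its rise in FRC1 against PAR (0.31, SE 0.11; edgeR adjusted p = 0.045) was lost without PAR replicate 1, PAR replicate 3, FRC1 replicate 2, FRC1 replicate 3 or SRC3 replicate 1 (range 0.0242 to 0.201) and with DESeq2 or limma voom. Gstp1, the pi class gene, fell from 145 ± 8.18 CPM in PAR to 123 ± 3.06 in FRC1 and 122 ± 3.18 in SRC3 (edgeR adjusted p = 0.00219 and 0.000808), and 33.7% of its windows were shared, with its copy Gstp2 among others. Gsto1 stood at 97.5 to 106 CPM in group means and was not called. Gstt2 had 6 to 14 reads per library and was not called. Gstt1 had 0 to 2 reads per library and Mgst1 had 0 in every library, which allows up to 0.231 CPM in a library, and neither was tested. These limits cover counting error only.

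**Figure D4:**
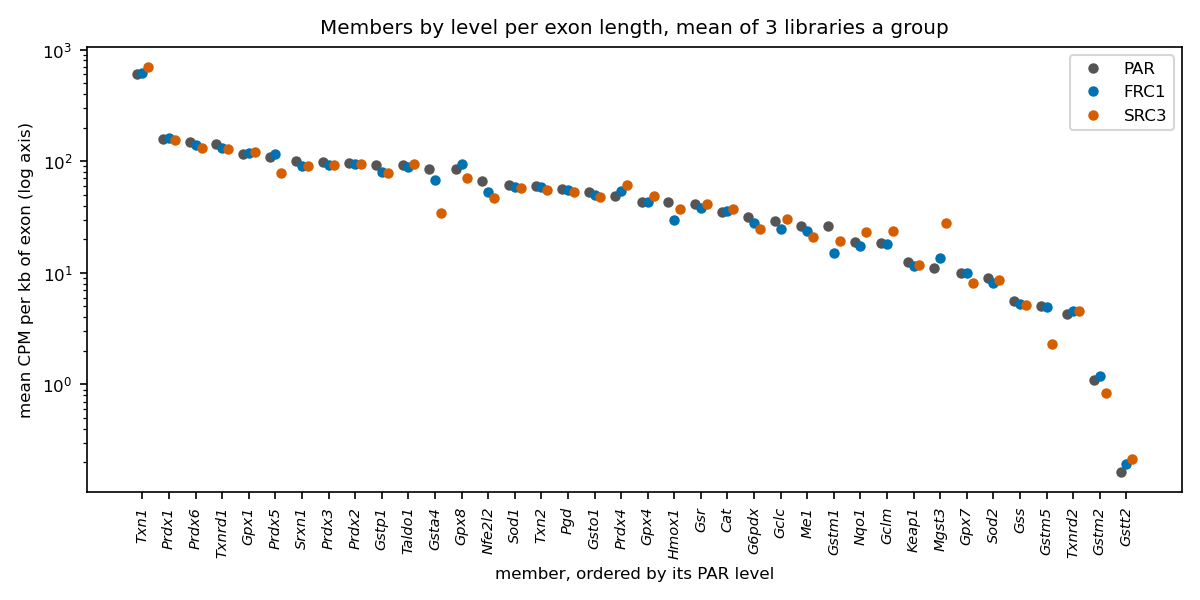
Mean level of 38 genes as CPM per kb of annotated exon (y axis, log scale) in the 3 groups, ordered by the PAR value (x axis). Txn1 is highest in all groups, and Gsta4, Gstm5 and Mgst3 show the widest gaps between groups.

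Thioredoxin reduces disulfides in proteins and peroxiredoxins and is itself reduced by thioredoxin reductase at the cost of NADPH. Per kilobase of annotated exon, which counts the exons of every annotated transcript, Txn1, the cytosolic thioredoxin gene, was the most abundant of the 40 genes in each group, at 602 CPM per kb in PAR and 695 in SRC3. The next 4 were Prdx1, Prdx6, Txnrd1 and Gpx1, at 115 to 157 CPM per kb in PAR and in that order in all 3 groups. Txn1 stood at 651, 633 and 614 CPM in PAR, 632, 680 and 616 in FRC1, against 763, 699.8 and 728 in SRC3, so SRC3 was above all others. It rose in SRC3 against PAR (log2 change 0.21, SE 0.048; edgeR adjusted p = 0.00203) and against FRC1 (0.18, SE 0.048; edgeR adjusted p = 0.00565). Txnrd1, its reductase, went from 1018 ± 24.7 CPM in PAR to 929 ± 55.6 in FRC1 and 914 ± 16.9 in SRC3. Both falls were small (edgeR adjusted p = 0.0401 and 0.0128): the first was lost without any 1 PAR library, FRC1 replicate 1, FRC1 replicate 3 or SRC3 replicate 1 (range 0.00907 to 0.164) and the second without PAR replicate 3 or SRC3 replicate 1 (range 0.00826 to 0.0806). The mitochondrial pair Txn2, at 232 to 253 CPM in group means, and Txnrd2, at 18.7 to 20 CPM, was called in no comparison.

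Of the 6 peroxiredoxins, which reduce hydrogen peroxide through a reactive cysteine, 1 rose and 2 fell in SRC3 against PAR. Prdx5, found in mitochondria, peroxisomes and cytosol (ENSMUSG00000024953, chromosome 19, 6906697 to 6910106), stood at 231, 239.8 and 231 CPM in PAR, 244, 260.4 and 246 in FRC1, against 167, 186 and 147 in SRC3. Every SRC3 library was below the other 6. Prdx5 fell in SRC3 against PAR (log2 change -0.49, SE 0.064; edgeR adjusted p = 7.2e-06) and against FRC1 (-0.59, SE 0.064; edgeR adjusted p = 9.23e-07). Trmt112 overlaps 19.1% of its exon bases on the opposite strand. Prdx4, the peroxiredoxin gene of the endoplasmic reticulum (ENSMUSG00000025289, chromosome X, 155323918 to 155340754), stood at 104, 103 and 102 CPM in PAR, 112, 119 and 112 in FRC1, against 132, 126 and 129.9 in SRC3, with 3 groups that did not overlap.

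Prdx4 rose in SRC3 against PAR (log2 change 0.33, SE 0.05; edgeR adjusted p = 2.32e-05) and against FRC1 (0.18, SE 0.049; edgeR adjusted p = 0.00803). Its rise in FRC1 against PAR (0.15, SE 0.05; edgeR adjusted p = 0.0276) was lost without any 1 PAR library, FRC1 replicate 2 or FRC1 replicate 3 (range 0.0214 to 0.133) and with DESeq2. Prdx6, which reduces phospholipid peroxides, stood at 714 ± 6.7, 669 ± 7.97 and 629.8 ± 6.24 CPM in PAR, FRC1 and SRC3, without overlap, and fell in SRC3 against PAR (edgeR adjusted p = 0.00133). Between FRC1 and PAR Prdx6 was not called (edgeR adjusted p = 0.0881), though it was with only these 2 groups in the fit (0.0451). Prdx1, Prdx2 and Prdx3 were not called, with group means of 472 to 488, 289 to 297 and 136 to 147 CPM, though Prdx3 was lower in SRC3 than in PAR without SRC3 replicate 1 (edgeR adjusted p = 0.0492; range 0.0492 to 0.359).

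Superoxide dismutases turn superoxide into hydrogen peroxide, which catalase (Cat) breaks down. Sod1, the cytosolic enzyme, stood at 245 ± 5.46, 234 ± 11.1 and 230.5 ± 6.73 CPM in PAR, FRC1 and SRC3 and was not called. Cat stood at 90.8 ± 6.32, 94.3 ± 5.13 and 98 ± 9.62 CPM and was not called, though it was higher in SRC3 than in PAR without SRC3 replicate 2 (edgeR adjusted p = 0.0277; range 0.0277 to 0.647). Sod2, the mitochondrial enzyme, fell in FRC1 from 89.9 ± 2.25 to 80.7 ± 3.84 CPM (edgeR adjusted p = 0.0358), a call lost without PAR replicate 1, PAR replicate 3, FRC1 replicate 2 or FRC1 replicate 3 (range 0.0193 to 0.135). In SRC3, at 85.6 ± 2.21 CPM, it was not called against either group, and 21% of its 50-base transcript windows were shared with other genes.

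NADPH comes from the pentose phosphate pathway, through G6pdx, Pgd and, in its non-oxidative arm, Taldo1, and from malic enzyme (Me1). G6pdx, the gene of the first and rate-limiting enzyme, stood at 95, 106 and 94.5 CPM in PAR, 89.7, 78.9 and 91.3 in FRC1, against 79.2, 73.9 and 73.9 in SRC3. PAR was highest, and FRC1 and SRC3 overlapped by 1 library. Me1 stood at 99.6, 104 and 102 CPM in PAR, 90.5, 94.5 and 89.2 in FRC1, against 79.2, 77.3 and 85.8 in SRC3, without overlap. In SRC3 against PAR G6pdx fell by 0.38 and Me1 by 0.33 on the log2 scale (edgeR adjusted p = 9.49e-05 and 6.06e-05), and G6pdx, Me1 and Nfe2l2 were the 3 genes called lower in all 3 comparisons.

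The smaller steps of these 2 genes kept their direction under every alternative run, but the calls were lost under some. In FRC1 against PAR the log2 fold change lay between -0.226 and -0.123 for G6pdx and between -0.185 and -0.143 for Me1, and in SRC3 against FRC1 between -0.249 and -0.144 and between -0.223 and -0.139. In FRC1 against PAR G6pdx (edgeR adjusted p = 0.0363) lost its call without PAR replicate 2 or FRC1 replicate 2 (range 0.0248 to 0.181), and Me1 (0.0356) without any 1 PAR library, FRC1 replicate 1 or FRC1 replicate 3 (range 0.0214 to 0.128). In SRC3 against FRC1 G6pdx (0.0249) lost it when either of FRC1 replicates 1 and 3 or of SRC3 replicates 2 and 3 was left out (range 0.00588 to 0.157), and Me1 (0.0162) without FRC1 replicate 2, SRC3 replicate 1 or SRC3 replicate 2 (range 0.00509 to 0.0825). Pgd, at 345 to 363 CPM in group means, and Taldo1, at 191 to 206 CPM, were not called, though Taldo1 was higher in SRC3 than in FRC1 without SRC3 replicate 3 (edgeR adjusted p = 0.0171; range 0.0171 to 0.431). Exact 50-base windows shared with other genes made up 28.3% of Me1 transcripts and 16.9% of those of G6pdx, whose exons also overlap Ikbkg on the opposite strand.

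Read by their calls in the 3 comparisons, 17 of the 38 genes were called in none. Nqo1, Gclm, Gpx4 and Txn1 were higher in SRC3 than in both other groups with no call between FRC1 and PAR, and Gpx8, Gsta4, Gstm5 and Prdx5 were lower in the same way. Mgst3 and Prdx4 were higher in all 3 comparisons. Hmox1 and Gclc were lower in FRC1 than in both other groups with no call between SRC3 and PAR. Gstp1 and Txnrd1 were lower in both reserve populations with no call between them, and Srxn1 and Prdx6 were called only in SRC3 against PAR.

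Other genes of the pathway came from 9 lists with 118 genes, of which 96 were tested. In FRC1 against PAR 7 rose and 28 fell (36.5%), in SRC3 against PAR 12 rose and 31 fell (44.8%), and in SRC3 against FRC1 18 rose and 18 fell (37.5%). The shares called among all genes were those given above. Of 7 tested genes of cystine uptake and glutathione turnover 0 rose and 2 fell in FRC1 against PAR by edgeR (0 and 4 at an unadjusted p under 0.05), 2 rose and 1 fell in SRC3 against PAR, and 3 rose and 1 fell in SRC3 against FRC1. Slc7a11, which encodes the cystine transporter xCT, stood at 66.7, 57.5 and 61.8 CPM in PAR, 34.4, 49.9 and 39.3 in FRC1, against 89.2, 81.8 and 109 in SRC3. The 3 groups did not overlap. Slc7a11 fell in FRC1 (log2 change -0.59, SE 0.15; edgeR adjusted p = 0.0205), a call lost without PAR replicate 1, PAR replicate 3 or FRC1 replicate 3 (range 0.00196 to 0.0666). It rose in SRC3 against PAR (0.59, SE 0.14; edgeR adjusted p = 0.0108) and against FRC1 (1.18, SE 0.15; edgeR adjusted p = 0.000304). Cth, whose enzyme makes cysteine from cystathionine, fell in FRC1 from 94.3 ± 6.41 to 72 ± 4.02 CPM and stood at 101 ± 4.16 in SRC3, higher than in FRC1 (edgeR adjusted p = 3.43e-06).

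**Figure D5:**
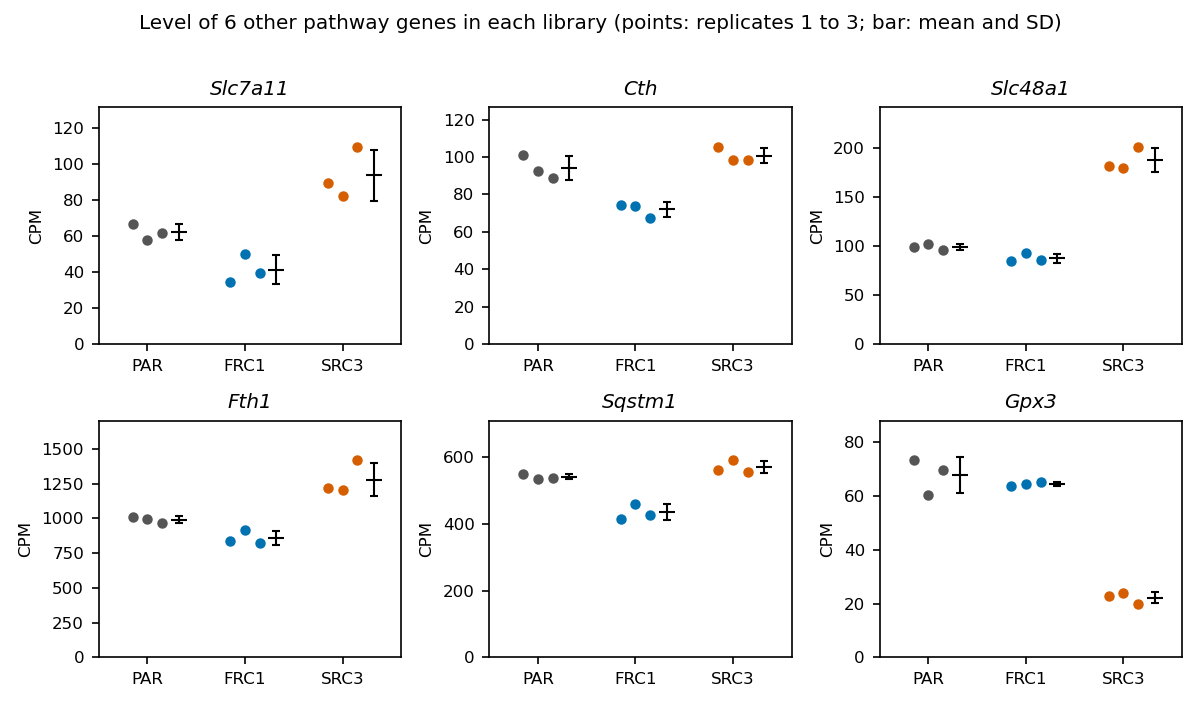
Level in CPM (y axis, from 0) of 6 other genes of the pathway in PAR, FRC1 and SRC3 (x axis), with a point for each library and a bar for the mean and SD of the 3. Slc7a11, Cth, Slc48a1, Fth1 and Sqstm1 are lowest in FRC1, and Gpx3 is lowest in SRC3.

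Of 10 haem and iron genes 1 rose and 4 fell in FRC1 against PAR, 2 rose and 2 fell in SRC3 against PAR, and 2 rose and 2 fell in SRC3 against FRC1. Slc48a1, a haem transporter gene, rose in SRC3 from 98.8 ± 2.78 CPM in PAR and 87.5 ± 4.45 in FRC1 to 187 ± 12.1 (1.9-fold and 2.14-fold; edgeR adjusted p = 8.14e-11 and 6.91e-12). Fth1, the ferritin heavy chain gene, went from 989.8 ± 24.2 CPM in PAR to 859 ± 51.4 in FRC1 and 1279 ± 122 in SRC3, and was called in each comparison (edgeR adjusted p = 0.0151, 6.96e-05 and 4.69e-07). The call of Fth1 in FRC1 was lost without PAR replicate 1, FRC1 replicate 1 or FRC1 replicate 3 (range 0.000939 to 0.0792). Ftl1, the light chain gene, went the opposite way, from 1335 ± 3.35 CPM to 1570 ± 153 in FRC1 and 1283 ± 7.03 in SRC3. It rose in FRC1 against PAR (edgeR adjusted p = 0.00294) and was lower in SRC3 than in FRC1 (0.000282).

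Among 10 tested partners and controllers of NRF2, 1 rose and 2 fell in FRC1 against PAR, 1 rose and 4 fell in SRC3 against PAR, and 1 rose and 2 fell in SRC3 against FRC1. The small MAF gene Mafg rose in FRC1 and in SRC3 against PAR (edgeR adjusted p = 0.0011 and 8.2e-05), from 162 ± 3.41 CPM to 189.95 ± 4.48 and 197 ± 5.77. Its relatives Maff and Mafk fell in SRC3, to 17.6 ± 1.47 and 28.7 ± 1.58 CPM. Sqstm1, the gene of p62, an autophagy adaptor that binds KEAP1, fell in FRC1 from 541 ± 7.73 to 434 ± 23.6 CPM (edgeR adjusted p = 4.87e-05) and stood at 569 ± 18.7 in SRC3, higher than in FRC1 (edgeR adjusted p = 1.7e-06).

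Of 11 further peroxidases and transferases 1 rose and 3 fell in SRC3 against PAR, among them Gpx3, the secreted peroxidase gene, 3.05-fold from 67.6 ± 6.74 to 22.2 ± 2.08 CPM (edgeR adjusted p = 3.34e-12). Of 17 glutaredoxin and thioredoxin-linked genes 0 rose and 5 fell in FRC1 against PAR by edgeR (2 and 7 at an unadjusted p under 0.05), and 1 rose and 7 fell in SRC3 against PAR. The largest of these changes in SRC3 was that of Txnip, at a low level, from 2.53 ± 0.985 CPM in PAR to 0.503 ± 0.119 (log2 change -2.32, SE 0.38; edgeR adjusted p = 6.52e-05). Sesn3, a sestrin gene, was at 42 ± 3.34, 23.2 ± 4.09 and 17.1 ± 0.134 CPM in PAR, FRC1 and SRC3 and fell in FRC1 and SRC3 (edgeR adjusted p = 3.65e-06 and 5.72e-09). Msrb3, a methionine sulfoxide reductase gene, fell 2.04-fold in SRC3 to 24.7 ± 3.14 CPM. Among 13 further NADPH genes 1 rose and 4 fell in FRC1 and 0 rose (1 at an unadjusted p under 0.05) and 4 fell in SRC3, each against PAR by edgeR, and Idh1 fell in both, from 53.7 ± 3.85 CPM to 37.8 ± 3.99 and 39.5 ± 3.99. Of 16 quinone, carbonyl and export genes 2 rose and 7 fell in FRC1 and 1 rose and 7 fell in SRC3 against PAR, and Ephx1, an epoxide hydrolase gene, fell 2.96-fold and 2.5-fold from 6.57 ± 1.02 CPM. Of 11 further redox genes 1 rose and 3 fell in FRC1 and 4 rose and 3 fell in SRC3 against PAR, and Ero1lb, an oxidase gene of the endoplasmic reticulum, rose in both, from 17.1 ± 0.197 CPM to 33.2 ± 4.09 and 43 ± 3.57 (edgeR adjusted p = 4.15e-07 and 5.28e-10). Of 9 NADPH oxidase genes, sources of superoxide, 1 was tested, Cyba, which was not called.

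Markers of other cell types and states differed between the groups as well. The summed level of 9 myoblast markers was 3001 to 3086 CPM in PAR, 2841 to 2923 in FRC1 and 2045 to 2248 in SRC3. That of 9 genes of differentiated muscle was 11.3 to 14.6, 97.9 to 121 and 13.6 to 32.1 CPM. These genes did not all move alike. Myog, Acta1, Myh3, Tnnc2 and Mylpf rose in FRC1 and in SRC3 against PAR, and Myh8 and Tnnt3 rose in FRC1 only. Mymk fell in SRC3 against PAR, from 4.996 ± 0.726 to 1.16 ± 0.281 CPM (edgeR adjusted p = 8.49e-07), and was not called in FRC1 (0.0617). For 8 smooth muscle and pericyte markers the sum was 167 to 198, 347 to 506 and 60.4 to 73.2 CPM, with 1, 3 and 2 of the 8 at 0 in PAR, FRC1 and SRC3. Its members went opposite ways in SRC3 against PAR. Acta2 fell from 67.1 ± 5.64 to 8.58 ± 5.29 CPM and Tagln from 112 ± 10.7 to 6.59 ± 4.14, while Cspg4 rose from 0.694 ± 0.325 to 52.3 ± 9 CPM and made up most of the SRC3 sum (edgeR adjusted p = 0.000674, 0.000181 and 1.35e-06). For 8 fibroblast markers it was 558 to 587, 287 to 401 and 280 to 307 CPM, nearly all of it Col3a1, with 3 of the 8, Lum and Tcf21 among them, at 0 in each group. These markers differed in direction too. Col3a1 and Ly6a fell in FRC1 and in SRC3 against PAR. Twist2 rose in both, from 0.869 ± 0.209 CPM to 2.23 ± 0.431 and 5.6 ± 0.37 (edgeR adjusted p = 0.000988 and 1.69e-08). Pdgfra fell in FRC1 and was not called in SRC3 against PAR (edgeR adjusted p = 0.0239 and 0.794). Endothelial markers summed to at most 0.559 CPM and leukocyte markers to at most 4.4 CPM in any library, the latter nearly all Cd68. Adipocyte markers summed to at most 5.35 CPM. Glial markers summed to 1.61 to 2.41, 2.03 to 2.42 and 14.9 to 31.1 CPM in PAR, FRC1 and SRC3, with 3, 2 and 2 of 6 at 0. Their part in the differences of the 40 genes was not tested.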

How the data were processed

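Polyadenylated RNA of 9 libraries was sequenced with a stranded TruSeq protocol, per the labels' protocols. The authors deposited whole-number read counts per gene, without normalization. Alignment and counting tools, per the submitters' processing notes, include HTSeq 0.9.1 and HISAT2 2.1.0 on build GRCm38, beside DESeq2. For settings, strand included, the sources used here say nothing, so reads of overlapping genes cannot be told apart. The 5 summary lines of each file stayed out of library sizes and tests (5.923 to 7.917% of the reads in genes, in no gene or ambiguous lay in no gene, 1.175 to 1.214% were ambiguous). Between replicates chi-square per degree of freedom was 1.81 to 7.47, so none was a duplicate.

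Groups came from the sample titles. Counts were filtered with filterByExpr of edgeR 4.0.16 (a count of 10 in a library, 15 in total) in R 4.3.3, scaled by TMM and fitted in a single model of 9 libraries with 6 residual degrees of freedom (glmQLFit, robust; two-sided glmQLFTest). SE is the size of the log2 fold change over the root of F. Lengths are the union of GENCODE M21 exons, and 50-base windows were compared exactly, on both strands, with all M21 transcripts. The rule for naming took up to 20 called genes per comparison in full and up to 3 of each other list with at least 1 CPM; members and lists were chosen with earlier results of these data known. On simulated data with 50 changed genes per fold among 12540, the test recovered 72, 86 and 70% at 1.5-fold in FRC1 against PAR, SRC3 against PAR and SRC3 against FRC1. At 1.25-fold it recovered 54, 42 and 42%. Far fewer genes were changed there than were called in the data, which alters the adjusted p, so these shares are not the recovery in the data. Replicate numbers were not taken as pairs. Alternatives were other scalings, filters, tools (DESeq2 1.42.0, limma 3.58.1), fits of only the 2 groups compared and left-out libraries. For other pathway genes these were added after seeing the data.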

Additional observations from a re-analysis of the deposited data

How the results depend on the processing

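FRC1 against PAR depended most on the choices. Of its 11 called genes, 4 (Nfe2l2, Hmox1, Gstm1 and Gstp1) kept their call under all 18 alternatives. The count of 2 that rose was 1 without a filter, 1 with limma voom and 0 with DESeq2 (3 at an unadjusted p under 0.05 by DESeq2), and at an adjusted p of 0.01 it was 0 higher and 4 lower by edgeR. With 1 library left out in turn, 0 to 3 genes rose and 5 to 10 fell in FRC1 against PAR, 4 to 6 rose and 10 to 13 fell in SRC3 against PAR, and 8 to 10 rose and 6 to 7 fell in SRC3 against FRC1. Of the called genes 14 of 18 in SRC3 against PAR and 12 of 16 in SRC3 against FRC1 kept their call under every alternative that tested them, and no called gene changed direction in any comparison. A fit with the replicate number as a block gave 2 higher and 9 lower, 5 and 12, and 9 and 7 in the 3 comparisons; Nqo1 in SRC3 and Slc7a11 in FRC1, both against PAR, lost their calls there. Correlations of same-numbered libraries' deviations were -0.0704 to 0.118. Depth limits Gstm2, Gstt2, Gstt1 and Mgst1.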
